A study of Ovis aries with 18 samples.

Results

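Plasma microRNAs (miRNAs) were compared between ewes on a high-fat diet and ewes on a standard diet at week 10, the middle of 3 blood samplings. The comparison holds 6 of the 18 libraries of the series, chosen by their titles: 3 labelled OBESE, week 10 and 3 labelled CTRL, week 10. Per the labels, the donors were female Polish Longwool sheep, all ovariectomized and carrying estradiol implants, with 6 ewes assigned to each diet. OBESE ewes received the high-fat diet for 14 weeks, and CTRL ewes received the standard diet throughout. Their age is not given in the sources used here, and the labels leave unsaid if each library holds the plasma of a single ewe. The p-values below are therefore set against library-to-library spread, which may be technical in part.

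A miRNA is a short RNA that guides the Argonaute protein to messenger RNAs, which are then repressed. Plasma holds miRNAs inside vesicles, in lipoprotein particles and bound to Argonaute. They come largely from blood cells and platelets, with smaller contributions from vessel wall, liver, fat and muscle, so a plasma level reports on release and clearance as well as on expression. In plasma, fewer releasing cells and less miRNA per cell cannot be told apart.

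The 6 libraries held between 388574 counts (CTRL replicate 1) and 1269829 counts (CTRL replicate 3), with 670547 to 1171984 in OBESE libraries. Between 249 and 292 of the 364 features in the files had at least 1 count. Of 14 library measures compared between the diets (depth, number of features, composition, scaling and summed cell type markers), none had a two-sided exact permutation p below 0.1, the smallest that 3 libraries against 3 can give (Benjamini-Hochberg adjusted p = 0.6). That value was reached by the share of the 5 most abundant miRNAs, 79.5% ± 0.973 under the standard and 77.7% ± 0.634 under the high-fat diet (SD over 3 libraries). Levels below are CPM, counts per 1000000 counts of the library total as scaled by TMM, a method that aligns libraries on their typical miRNA. CPM is not divided by length.

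The same few miRNAs led the plasma of both diets. miR-16b, which red blood cells hold in large amounts, took 47.1% ± 2.68 of the counts under the standard diet and 44.5% ± 1.65 under the high-fat diet (SD over 3 libraries), and the counting error of a single library was at most 0.156 percentage points to either side (Wilson 95% interval). Its level was 419069, 515334 and 459748 CPM in CTRL replicates 1 to 3 and 357922, 443764 and 416679 CPM in OBESE replicates 1 to 3. The groups overlapped. The next features were the unnamed miRNAs 2 and 1, which the files list under a running number with no sequence, at 11.2% ± 2.07 and 12.6% ± 1.54 in CTRL and 12.9% ± 0.735 and 10.8% ± 3.83 in OBESE libraries. let-7b, miR-191, let-7g, let-7a, unnamed miRNA 3, miR-150 and miR-30d completed the 10 most abundant.

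**Figure D1:**
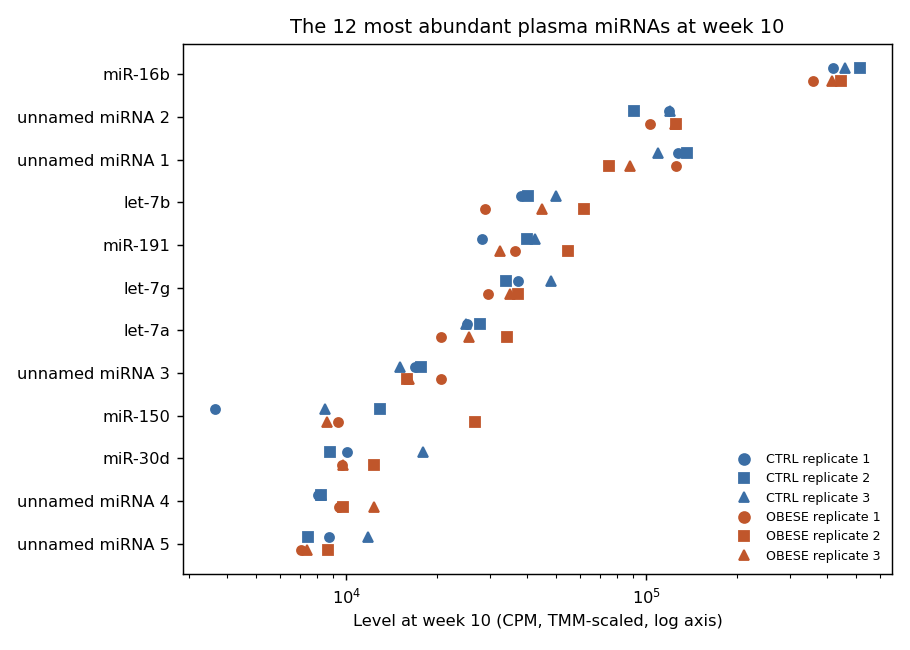
Level of the 12 most abundant features in each week 10 library (CPM on a log axis; blue CTRL, orange OBESE; marker shape gives the replicate). Diet groups overlapped for all but unnamed miRNA 4, and miR-150 spread most widely, from 3657 CPM in CTRL replicate 1 to 26777 CPM in OBESE replicate 2.

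The question of the comparison was which plasma miRNAs differ between the diets at week 10. Enough counts for a test were present for 168 features, 54 with a miRNA name and 114 unnamed. With edgeR's quasi-likelihood test and Benjamini-Hochberg adjustment over these, 0 of 168 (0%) passed an adjusted p of 0.05. The smallest adjusted p was 0.642, and 11 (6.55%) had an unadjusted p under 0.05, 4 higher and 7 lower in OBESE. DESeq2 and limma-voom on the same features each gave 0 and 13. Of all tested features, 82 had a positive and 86 a negative log2 difference (OBESE minus CTRL throughout), with a median of -0.03 and quartiles of -0.32 and 0.32. Among the 54 named miRNAs 34 were positive, with a median of 0.15, against a median of -0.08 over the unnamed ones. The families and lists below hold named miRNAs only.

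For 22 of the 168 features (13.1%), the 3 OBESE libraries did not overlap the 3 CTRL libraries. With 20 equally likely assignments of 3 against 3, full separation in either direction has a probability of 0.1 without any diet effect. Separation alone therefore does not mark a diet difference. Of the 22 separated features, 11 (6.55%) lay higher and 11 (6.55%) lower in OBESE. Among named miRNAs 7 of 54 (13%) were separated and among unnamed ones 15 of 114 (13.2%). The split depended on scaling: with library totals alone 17 lay higher and 6 lower, and 15 features were separated under both scalings. Those 15 include 6 of the 7 named miRNAs described next, miR-323c being the exception. Features separated with library totals alone but not with TMM include miR-194, miR-30c and unnamed miRNA 22. Differences are therefore relative to the typical miRNA of the libraries, whose median moved from -0.03 to 0.09 on the log2 scale without TMM.

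miR-17-5p and miR-106b lay lower in OBESE plasma. miR-17-5p, a growth-promoting miRNA of the miR-17/92 cluster that represses cell cycle inhibitors, stood at 670, 458 and 623 CPM in CTRL replicates 1 to 3 and at 340, 370 and 400 CPM in OBESE replicates 1 to 3. Every OBESE library was below every CTRL library, and the OBESE libraries were the tighter group (370 ± 30.3 against 584 ± 111 CPM, SD, n = 3 each). Its log2 difference was -0.66 (SE 0.26, edgeR unadjusted p = 0.0216, adjusted p = 0.642). Over all alternative settings it stayed between -0.78 and -0.50. The unadjusted p values ranged from 0.0111 to 0.118, the highest with library totals alone (edgeR). miR-106b, from a paralogous cluster, stood at 164, 136 and 145 CPM in CTRL and at 108, 121 and 79.8 CPM in OBESE libraries. Its groups were separated too, with a log2 difference of -0.52 (SE 0.333, edgeR adjusted p = 0.722), which became -0.33 without OBESE replicate 3. miR-25, which lies beside miR-106b in the genome, stood at 1365 ± 219 CPM in CTRL and 1272 ± 191 CPM in OBESE libraries, and its groups overlapped. Of the miR-17/92 clusters, 5 miRNAs are in the files and these 3 had enough counts: differences were negative for 3 of 3, with a median of -0.52 against -0.03 over all tested features, and 0 of 3 passed the adjusted test.

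miR-29a lay higher in OBESE plasma. This miRNA represses collagens and components of insulin signalling, and its family is known to rise in insulin-resistant tissue. It stood at 3368, 4331 and 3844 CPM in CTRL replicates 1 to 3 and at 6274, 5607 and 5110 CPM in OBESE replicates 1 to 3. The lowest OBESE library was above the highest CTRL library, and the log2 difference was 0.56 (SE 0.231, 95% interval 0.07 to 1.05, edgeR unadjusted p = 0.0274, adjusted p = 0.642). Over all alternative settings it stayed between 0.51 and 0.72, with unadjusted p values from 0.01 to 0.0701. The files hold no feature named miR-29b or miR-29c, so reads of these near-identical relatives could be counted under miR-29a or elsewhere.

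miR-199a-3p, a miRNA of mesenchymal cells that platelets also carry, stood at 384, 360 and 398 CPM in CTRL and at 454, 443 and 761 CPM in OBESE libraries. The groups were separated, but OBESE replicate 3 stood far above the other two OBESE libraries. The log2 difference of 0.54 (SE 0.252, edgeR unadjusted p = 0.0484, adjusted p = 0.676) became 0.29 without that library.

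miR-99a and miR-10b, members of related families carried by HOX-linked and let-7-linked clusters, were also separated. miR-99a, a repressor of MTOR, stood at 172, 188 and 255 CPM in CTRL and at 280, 310 and 308 CPM in OBESE libraries, a log2 difference of 0.54 (SE 0.329). miR-10b stood at 431, 528 and 539 CPM in CTRL and at 598, 597 and 644 CPM in OBESE libraries, a smaller difference of 0.29 (SE 0.254). In both, the OBESE libraries lay close together just above the CTRL range. The edgeR adjusted p was 0.722 for miR-99a and 0.761 for miR-10b. The other tested members of the family, miR-125b (250 ± 94.5 CPM in CTRL and 285 ± 89.5 CPM in OBESE) and miR-10a (971 ± 273 and 845 ± 139 CPM), overlapped, so 3 of 4 members were positive with a median of 0.24.

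miR-323c, from the imprinted DLK1-DIO3 locus, was the separated named miRNA with the lowest level. It stood at 23.8, 16.6 and 11.1 CPM in CTRL and at 29.7, 25.3 and 40.6 CPM in OBESE libraries, a log2 difference of 0.93 (SE 0.624, edgeR adjusted p = 0.722). Its 95% interval ran from -0.39 to 2.25.

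**Figure D2:**
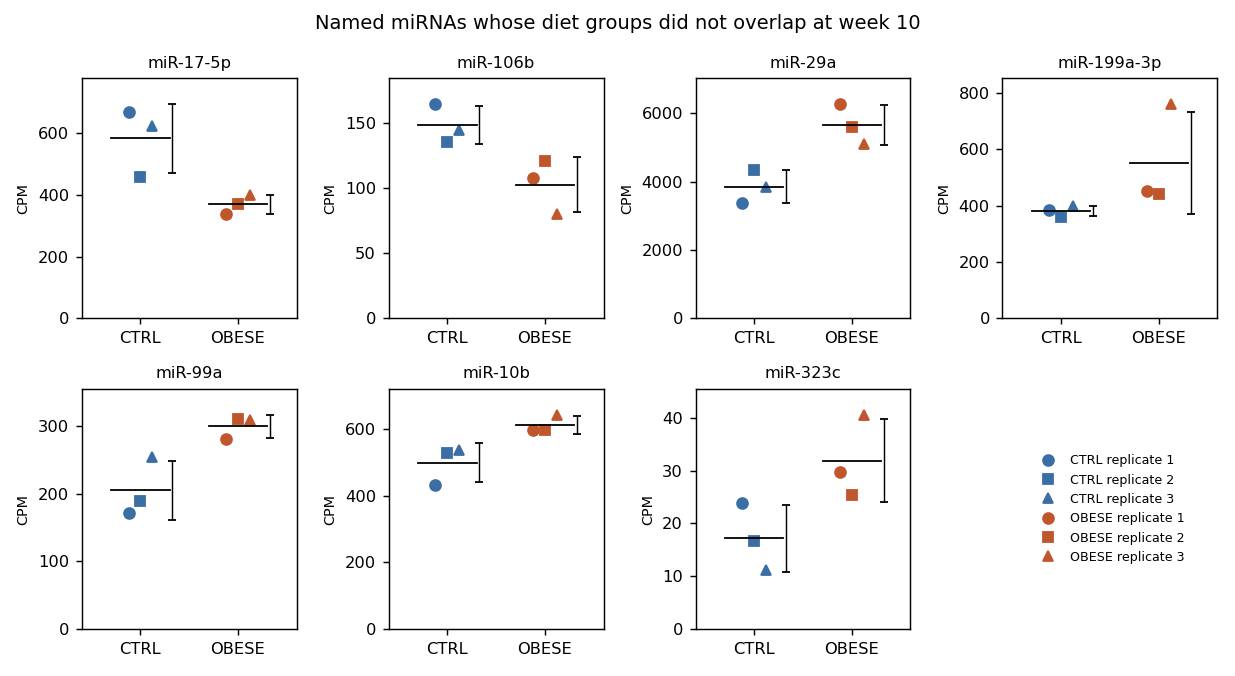
Level (CPM) of the 7 named miRNAs whose diet groups did not overlap, with a point per library, a line at the mean of 3 libraries and an error bar of 1 SD. miR-17-5p and miR-106b sat lower in OBESE and the other 5 sat higher, with miR-199a-3p raised most in OBESE replicate 3 (761 CPM).

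Unnamed features made up 8 of the 11 with an unadjusted p under 0.05, a share near their 114 of the 168 tested features. Unnamed miRNA 35 had the smallest p. It stood at 348, 452 and 418 CPM in CTRL and at 686, 677 and 552 CPM in OBESE libraries, separated by diet with a log2 difference of 0.65 (SE 0.219, edgeR unadjusted p = 0.00837, adjusted p = 0.642). Unnamed miRNA 22 was higher in OBESE replicates 2 and 3 (1599 and 1690 CPM) than in the CTRL libraries (832, 1166 and 902 CPM), while OBESE replicate 1 lay among the latter at 1009 CPM (log2 difference 0.57, SE 0.216). Unnamed miRNA 6 was lower in OBESE, at 1906, 2049 and 2108 CPM against 3037, 2309 and 4557 CPM in CTRL libraries (-0.71, SE 0.304). Without CTRL replicate 3, the library at 4557 CPM, its difference was -0.40. Unnamed miRNAs 43, 15, 18 and 233 were separated in the same direction, with log2 differences of -0.63, -0.43, -0.65 and -0.93. Unnamed miRNA 18 became -0.37 without OBESE replicate 2, and neither it nor unnamed miRNA 6 was separated with library totals alone. The abundant unnamed miRNA 4 was separated by a small step, from 8182 ± 114 CPM in CTRL to 10514 ± 1576 CPM in OBESE libraries (0.36, SE 0.248). The remaining separated unnamed features were 36, 39, 57 and 82, higher in OBESE by 0.44 to 0.59 (unnamed miRNA 36 was 0.27 without OBESE replicate 1, and unnamed miRNA 39 was 0.35 without OBESE replicate 3), and 55, 62, 19 and 53, lower by -0.73 to -0.46. None passed the adjusted test.

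Unnamed miRNA 27 had the most negative fitted difference, -3.87 (SE 1.47, edgeR unadjusted p = 0.0175, adjusted p = 0.642), and its libraries did not follow diet. It stood at 2479 and 2571 CPM in CTRL replicates 1 and 2. CTRL replicate 3 held 65.6 CPM, below all 3 OBESE libraries, which held 142, 76.8 and 130 CPM. The fitted difference thus came from 2 high CTRL libraries, and the SD of the CTRL group (1421 CPM) was close to its mean (1705 CPM).

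The let-7 family, which restrains growth and modulates insulin signalling, had no member past the test. Of its 7 tested members 2 were positive and 5 negative, with a median of -0.10 and a range from -0.26 to 0.08. let-7g stood at 39850 ± 7286 CPM in CTRL and 34055 ± 4012 CPM in OBESE libraries, and let-7a at 26013 ± 1611 and 26922 ± 6909 CPM (SD over 3 libraries). let-7f had the most negative difference, -0.26 (SE 0.165, edgeR adjusted p = 0.722), which became -0.09 without CTRL replicate 2. The interval of let-7a, from -0.32 to 0.42, leaves out changes of 2-fold. let-7c, which lies beside miR-99a in the genome, had -0.10 (SE 0.226), against 0.54 (SE 0.329) for miR-99a. The difference within this pair was not tested.

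Other miRNAs studied in fat tissue and insulin action pointed in both directions: of 11 tested members of that list 7 were positive and 4 negative, the median was 0.14 and 0 passed. miR-26a and miR-26b, which promote fat cell differentiation, pointed apart, miR-26a at 0.34 (SE 0.228) and miR-26b at -0.35 (SE 0.275), or -0.57 to -0.16 with 1 library left out. miR-103 and miR-107, near-identical repressors of insulin sensitivity whose reads can be hard to assign, had 0.18 (SE 0.312) and 0.14 (SE 0.37). In both, OBESE replicate 1 was highest (1240 and 1066 CPM) and OBESE replicate 2 lowest (645 and 427 CPM), so the OBESE libraries enclosed the CTRL range. miR-21, a miRNA of inflammation and fibrosis, stood at 1204 ± 191 CPM in CTRL and 897 ± 204 CPM in OBESE libraries (log2 difference -0.42, SE 0.255), and its difference was -0.24 without OBESE replicate 2. The inflammation list had 1 positive and 2 negative of 3 tested members and a median of -0.25, with miR-221 at -0.25 (SE 0.252). In the clusters of miR-23, miR-27 and miR-24, miR-23a had 0.26 (SE 0.254), miR-23b -0.25 (SE 0.375), and miR-27a stood at 777 ± 61.2 CPM in CTRL and 780 ± 132 CPM in OBESE libraries.

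The miR-30 family, known for its part in making fat cells, had 4 positive and 1 negative of 5 tested features and a median of 0.44. miR-30a-5p stood at 1485, 1333 and 1823 CPM in CTRL and at 1384, 1618 and 3448 CPM in OBESE libraries. OBESE replicate 3 alone stood out, and the other two OBESE libraries lay inside the CTRL range. The log2 difference of 0.47 (SE 0.302, edgeR adjusted p = 0.722) became 0.00 without OBESE replicate 3 and 0.72 without OBESE replicate 1. The opposite arm, miR-30a-3p, stood at 410 CPM in that library and at 228 to 337 CPM in the others, so the ratio of 5p to 3p counts there was 8.42 against 5.02 to 5.85 in the other 5 libraries. miR-30c, at 19 ± 7.52 CPM in CTRL and 31.4 ± 8.06 CPM in OBESE libraries, had 0.68 (SE 0.462). miR-30d, the main family member in plasma, stood at 12317 ± 5023 and 10580 ± 1558 CPM, and was highest in CTRL replicate 3 at 18075 CPM. The deposited counts do not show how reads shared by miR-30a-5p and miR-30d were assigned.

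**Figure D3:**
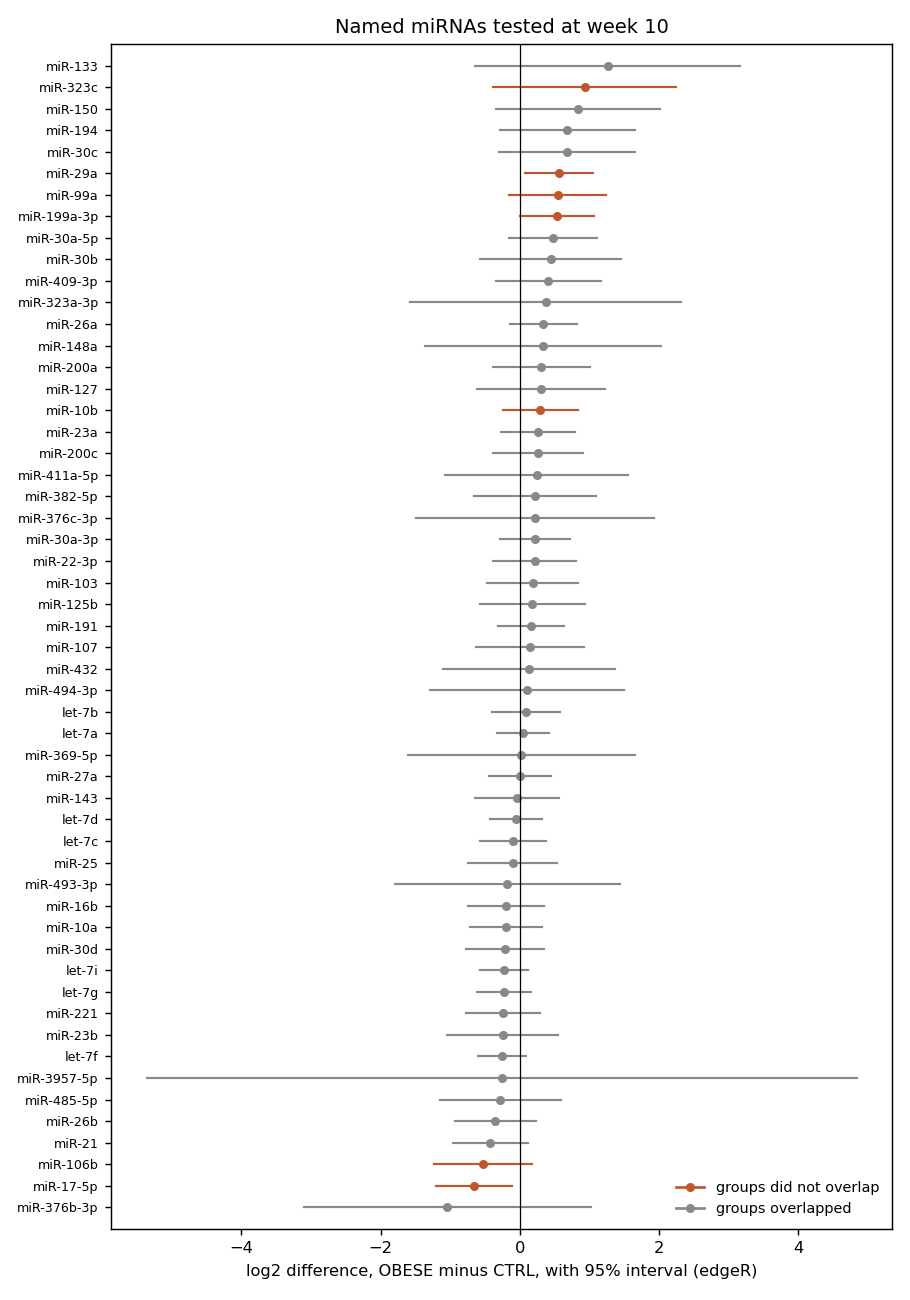
Fitted log2 difference (OBESE minus CTRL) and 95% interval of the 54 tested named miRNAs at week 10, ordered by the estimate. Most intervals include 0, and the 7 miRNAs whose groups did not overlap are in orange, from miR-17-5p at -0.66 to miR-323c at 0.93.

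The tissue label was checked against markers of the cells that feed plasma. The red blood cell list had 3 of 7 members in the files, miR-16b, miR-25 and miR-106b, with a summed level of 420383 to 517058 CPM in CTRL and 359332 to 445331 CPM in OBESE libraries, nearly all of it miR-16b. All 3 had negative differences (median -0.19). The files hold no feature named miR-451, miR-486, miR-144 or miR-92a, so red cell content rests on these 3 alone. Platelet markers were present as 4 of 7 (miR-191, miR-199a-3p, miR-21 and miR-23a), with sums of 30682 to 45420 CPM in CTRL and 34934 to 57309 CPM in OBESE libraries, 3 of 4 positive and a median of 0.21. Vessel wall markers miR-143 and miR-221 had sums of 2066 to 3484 and 2256 to 3661 CPM. miR-143 had a difference of -0.04 (SE 0.288). The part of blood cell or platelet release in the values above was not tested.

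Tissue markers were scarce. miR-194, known from liver and gut, stood at 62, 78.4 and 51.4 CPM in CTRL and at 103, 76.8 and 127 CPM in OBESE libraries. Its groups overlapped with TMM but were separated with library totals alone. The log2 difference with TMM was 0.68 (SE 0.459, edgeR adjusted p = 0.722). miR-148a, also abundant in liver, had 0.33 (SE 0.805). Of 3 epithelial markers in the files 2 were tested: miR-200a had 0.31 (SE 0.33) and miR-200c 0.26 (SE 0.306). The files hold no feature named miR-122 or miR-192, and no muscle marker but miR-133. miR-133 had 1, 7 and 15 counts in CTRL and 13, 49 and 10 counts in OBESE libraries, or 2.38, 10.6 and 11.9 against 9.64, 41.3 and 13.5 CPM. OBESE replicate 2 stood apart. The log2 difference of 1.26 (SE 0.903, edgeR adjusted p = 0.757) became 0.40 without it.

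miR-150, the defining miRNA of mature lymphocytes and 1 of the 10 most abundant here, varied widely within each diet. It stood at 3657, 12943 and 8508 CPM in CTRL and at 9370, 26777 and 8649 CPM in OBESE libraries. The highest library was again OBESE replicate 2 and the lowest CTRL replicate 1, while the other 4 lay between 8508 and 12943 CPM. The log2 difference was 0.84 (SE 0.56, edgeR adjusted p = 0.722) with all libraries, 0.14 without OBESE replicate 2, 0.50 without CTRL replicate 1 and 1.32 without CTRL replicate 2. No other named lymphocyte or myeloid marker of the list was present (1 of 6).

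Single libraries thus set several of the wider differences. Over the 54 named miRNAs, OBESE replicate 3 held the highest level for 16 and OBESE replicate 2 for 13, against 5 to 8 for each of the other 4 libraries. Over all 168 tested features, OBESE replicate 3 led with 37, CTRL replicate 3 with 35 and CTRL replicate 1 with 28. OBESE replicates 2 and 1 held 26 and 17, and CTRL replicate 2 held 25. Among 95 features with a mean of at least 100 CPM, the named miRNAs in which a library lay over 2-fold above both others of its diet were miR-150 in OBESE replicate 2 and miR-30a-5p and miR-432 in OBESE replicate 3. OBESE replicate 1 lay that far above both others for 5 features, all unnamed. Among these, unnamed miRNAs 8 and 9 are near copies by their counts (differing by 2.93%). CTRL replicate 1, the shallowest library, lay over 2-fold below both others for miR-150. By contrast let-7d was the steadiest named miRNA, between 2078 and 2678 CPM in the 6 libraries (coefficient of variation 10%), followed by miR-27a (11.8%), miR-16b (12%), miR-10b (13.4%) and miR-25 (14.5%).

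**Figure D4:**
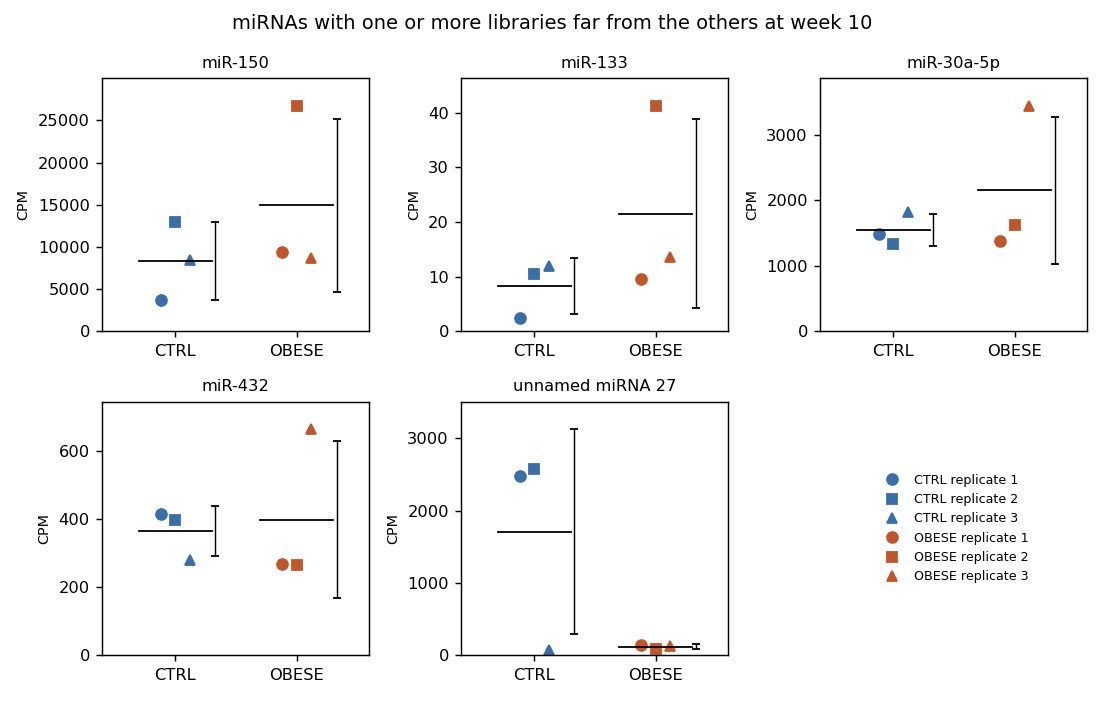
Level (CPM) of 5 miRNAs in which 1 or more libraries lay far from the rest of their diet, with the mean line and an error bar of 1 SD (n = 3). OBESE replicate 2 was high for miR-150 and miR-133, OBESE replicate 3 for miR-30a-5p and miR-432, and CTRL replicates 1 and 2 for unnamed miRNA 27.

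The DLK1-DIO3 locus carries a large set of miRNAs expressed from the maternal chromosome, which plasma holds at low levels in adult animals. Of 59 named features placed there by the fixed lists and by position between their members in the RefSeq table, 14 had enough counts for a test. Of these 10 were positive and 4 negative, with a median of 0.17, and 0 passed. That median is near the 0.15 of all tested named miRNAs, of which 34 of 54 were positive. The summed level was 1785, 1497 and 1124 CPM in CTRL and 1315, 1258 and 2481 CPM in OBESE libraries. OBESE replicate 3 was the highest and CTRL replicate 3 the lowest, so the ranges of the diets overlapped in part. miR-432 and miR-127 are transcribed antisense to PEG11 (RTL1), whose messenger RNA they cleave. miR-432 stood at 415, 398 and 280 CPM in CTRL and at 267, 265 and 665 CPM in OBESE libraries. Its log2 difference was 0.13 (SE 0.588) and turned to -0.40 without OBESE replicate 3. miR-127 had 0.30 (SE 0.437) and miR-409-3p 0.41 (SE 0.358). miR-382-5p, the most abundant of the locus, followed the same library, at 1121 CPM in OBESE replicate 3 against 477 to 861 CPM elsewhere.

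The week 10 values were then set beside those of the other samplings, each from its own 3 libraries per diet. Whether the same ewes gave blood at each is not stated per library. Groups did not overlap for 15 features (8.93%) at week 7, 10 (5.95%) higher and 5 (2.98%) lower in OBESE, and for 16 (9.52%) at week 14, 12 (7.14%) higher and 4 (2.38%) lower. With edgeR, 0 of 168 passed the adjusted test at either week, and 9 (5.36%) and 13 (7.74%) had an unadjusted p under 0.05. miR-17-5p had log2 differences of 0.04 (SE 0.26) at week 7, -0.66 at week 10 and -0.88 (SE 0.261) at week 14. miR-29a had -0.11, 0.56 and 0.23, and miR-199a-3p had -0.07, 0.54 and 0.04, so the fitted difference of each was largest at week 10 and slightly negative at week 7. miR-323c was positive at all 3 weeks, with 0.88, 0.93 and 1.40, and so was unnamed miRNA 22, with 0.60, 0.57 and 0.34. miR-30a-5p, whose week 10 value hung on OBESE replicate 3, was positive at all 3 as well, with 0.96, 0.47 and 0.57. miR-106b was negative at all 3, with -0.34, -0.52 and -0.35.

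Whether the week 10 difference departed from the mean of weeks 7 and 14 was tested as an interaction. The test treats libraries of different weeks as independent. With edgeR, 0 of 168 features (0%) passed after adjustment (smallest adjusted p = 0.973), and 2 (1.19%) had an unadjusted p under 0.05. DESeq2 and limma-voom gave 0 adjusted calls as well. The smallest p belonged to miR-133, with a difference of 1.26 at week 10, -1.95 at week 7 and -0.83 at week 14 (interaction 2.66, SE 1.1, unadjusted p = 0.0274). Its counts at week 10 were few. The other was unnamed miRNA 245, with 0 counts in all CTRL libraries and 9, 7 and 0 in OBESE libraries, too few for a fold change. miR-21 followed, higher in OBESE at week 7 (0.45) and lower at week 10 (-0.42; interaction -0.63, SE 0.312, unadjusted p = 0.0587). For miR-29a the interaction was 0.50 (SE 0.283, unadjusted p = 0.0961) and for miR-17-5p -0.24 (SE 0.317, unadjusted p = 0.468).

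**Figure D5:**
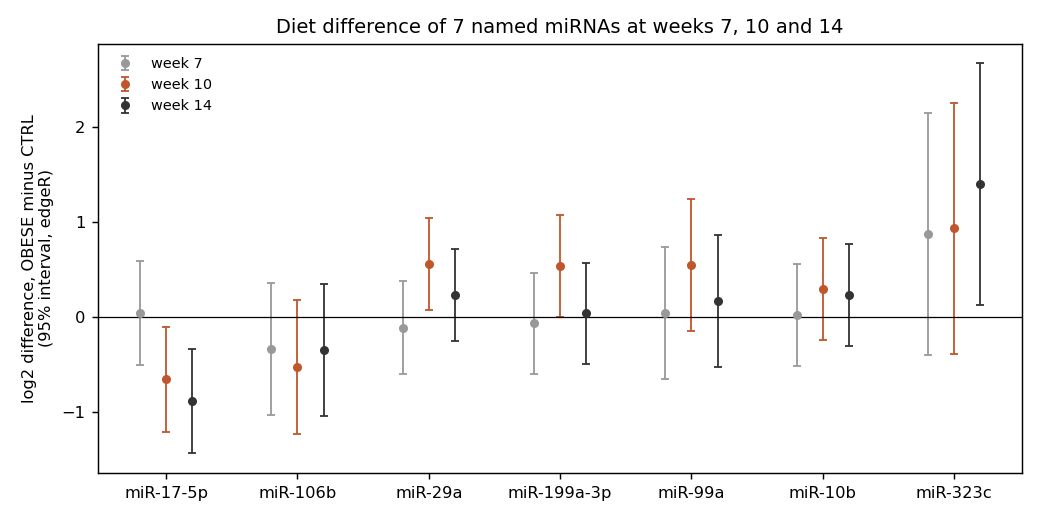
Fitted log2 difference (OBESE minus CTRL, edgeR, 95% interval) at weeks 7, 10 and 14 for the 7 named miRNAs separated at week 10. miR-17-5p was near 0 at week 7 (0.04) and lower at weeks 10 and 14, and miR-29a was highest at week 10 (0.56).

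The precision of the comparison set what it could show. The half-width of the 95% interval (log2) had a median of 0.91 over all tested features. That median was 0.51 for the 40 features of at least 1000 CPM, 0.69 for the 55 between 100 and 1000 CPM and 1.29 for the 73 below 100 CPM. For 54 of 168 features (32.1%), 26 of them named, the whole interval lay within a 2-fold change in either direction. Those include miR-16b (-0.74 to 0.35), miR-191 (-0.32 to 0.63) and miR-27a (-0.44 to 0.45). For the rest the interval reached past a 2-fold change in at least 1 direction, so a change of that size was not excluded.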

How the data were processed

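Small RNA of 200 µL plasma was sequenced with the QIAseq miRNA kit, which carries molecular identifiers, as single reads of 76 bases on an AVITI instrument, per the labels' protocols. Tools listed in the notes of the submitters are Bowtie 1.3.1, cutadapt 4.9 and DESeq2 1.42 (per the submitters' processing notes). For the genome build, the miRNA annotation and reads that match several miRNAs, nothing is given in the sources used here. Raw counts were deposited by the authors per miRNA, as whole numbers, for each library and as 1 table. The table and the single files differed in 0 values. Neither files nor labels state if a count is 1 molecule or 1 read.

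edgeR's filterByExpr chose the features to test from the 6 groups (count of 10, total of 15 as minimum). The 196 left out, 53 of them named, held 0.0398% to 0.0553% of a week 10 library. All 18 libraries in 6 groups of diet and week were fitted together with edgeR 4.0.16 in R 4.3.3 (TMM, quasi-likelihood test, two-sided, 12 residual degrees of freedom), so that the groups share 1 estimate of the spread. The fit treats the 18 libraries as independent, although same-numbered libraries of a diet tended to deviate together across weeks (closing section). Its SEs and p-values do not allow for that, and the replicate block gives a number the same effect in both diets. SE is the log2 difference divided by the root of the F statistic and is approximate. Alternatives used DESeq2 1.42.0, limma 3.58.1 and those named in the closing section. The fit was also run on simulated counts with changes of known size. These were drawn independently for each library, so they cannot show how the fit fares where libraries deviate together. miRNAs are named by a rule of abundance, smallest p, separated groups, list membership and variability. The members and lists were chosen with earlier results of these data known. All 107 named features matched a gene in the RefSeq table of ARS-UI_Ramb_v3.0, used for names and for neighbours within 10000 bases. No miRNA sequences are printed. Replicate numbers did not pair the diets. Over 168 features, same-numbered deviations correlated by 0.35, 0.06 and 0.01, and different-numbered ones by -0.41 to 0.37. No 2 libraries agreed within sampling noise (chi-square per degree of freedom at least 54.4).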

Additional observations from a re-analysis of the deposited data

How the results depend on the processing

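No week 10 difference passed the adjusted test under any alternative: the 6 week 10 libraries alone, DESeq2, limma-voom, library totals without TMM, no filter, the replicate block, each week 10 library left out, and, chosen after seeing the data, leaving out CTRL week 7 replicate 1 and CTRL week 14 replicate 3, which had TMM factors of 0.653 and 0.718. The smallest adjusted p ranged from 0.214 to 0.8. The count at an unadjusted p under 0.05 was 11, and 11 with the replicate block (edgeR). It was 4 with library totals alone and 18 without the filter, which tests 364 features, 14 of them higher in OBESE. Leaving out 1 library gave 7 to 12, the lowest without CTRL replicate 1, and 4 to 7 higher in OBESE, with 7 without OBESE replicate 1 or 2. Features with separated groups and a higher level in OBESE numbered 17 with library totals alone. For the interaction, 12 features had an unadjusted p under 0.05 without the filter, and 1 to 7 with a library left out: 1 without CTRL replicate 1, 7 without CTRL replicate 2 and 4 without OBESE replicate 3.

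The alternatives followed 47 features, with and without a miRNA name, picked by smallest p, separated groups or list membership in these same data. The list members were those with the smallest p of each list, so they too were picked by p unless the list was short. For features picked by p or separation, a kept direction was likely in advance. The direction was kept in every alternative by 42 of the 47. The others were miR-143, miR-432, miR-107, miR-23b and miR-148a. miR-143 was 0.073 with library totals alone and 0.066 without the filter, and -0.31 to 0.13 with a library left out. miR-432 was -0.0035 with limma-voom and -0.40 to 0.36 with a library left out. In those fits miR-107 ranged from -0.20 to 0.46, miR-23b from -0.42 to 0.073 and miR-148a from -0.19 to 0.75. The cause was not tested. Features under about 3 counts (2.22 to 7.15 CPM by library) cannot be told from absent. The interval of a share covers counting error alone, while intervals of log2 differences also include the spread between libraries.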

Other observations

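Libraries of a diet with the same replicate number tended to deviate together across weeks. Deviations of log2 CPM from the group mean over the 168 tested features correlated between CTRL week 10 libraries and the CTRL libraries of the same number at weeks 7 and 14 by 0.28 to 0.49 (6 pairs), and by -0.30 to -0.10 for different numbers (12 pairs). Among OBESE libraries the values were -0.04 to 0.69 and -0.48 to 0.19. For the same number the median was 0.42 in OBESE and 0.39 in CTRL libraries, and the -0.04 was OBESE replicate 2 against week 7. Deviations within a group sum to 0, so different numbers tend to be negative. The labels do not say that a number marks an ewe. For unnamed miRNA 27, CTRL replicates 1 and 2 held 1142 and 2382 CPM at week 7 and 3612 and 1775 CPM at week 14, against 64.9 and 89.7 CPM in CTRL replicate 3. OBESE replicate 2 held 3143 CPM at week 7 but 76.8 CPM at week 10 and 89.3 CPM at week 14.

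At week 10, 3 features had counts in every library of 1 diet and in none of the other. Unnamed miRNAs 120 and 178 had counts in all 3 OBESE libraries (1, 1 and 4, and 5, 3 and 3) and 0 in CTRL, and unnamed miRNA 194 had 2, 7 and 1 in CTRL and 0 in OBESE. All lie near the 3 counts that a 0 allows per library, so no fold is given. Some unnamed features are near copies of each other by their counts (differing by under 5%), such as 45 and 46, at 31.9, 101 and 273 CPM for unnamed miRNA 45 in OBESE replicates 1 to 3 and 33.4, 30.2 and 62.5 CPM in CTRL replicates 1 to 3.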
